A study of Rattus norvegicus with 20 samples.

Results

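Substance P, calcitonin gene-related peptide (CGRP) and somatostatin are neuropeptides made by small sensory neurons of the dorsal root ganglion, and their genes were followed here across 2 nerve injury models of the rat. The members were all probe sets that the array's probe table assigns to Tac1, Calca, Calcb, Sst or Scg2 and to no other gene. They came to 8 of the 8740 probe sets tested, for 5 of the 4736 genes measured, with 2 each for Tac1, Calca and Sst and 1 each for Calcb and Scg2. Tac1 encodes the precursor of substance P, Calca and Calcb encode the precursors of the alpha and beta forms of CGRP, Sst encodes the somatostatin precursor, and Scg2 encodes secretogranin II, a protein of the dense-core granules in which such peptides are stored.

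Each sample was total RNA of dorsal root ganglia from the operated side, read on 1 Affymetrix rat array. Chronic constriction injury (CCI), in which loose ligatures are tied around the sciatic nerve, was sampled at 14 days (3 arrays) and 21 days (3 arrays). The Seltzer group, named after a partial ligation of the sciatic nerve but described in the labels as a transection of that nerve, was sampled at 14 days (2 arrays), 21 days (3 arrays) and 50 days (2 arrays). Sham-operated rats were sampled at 14 days (2 arrays), 21 days (3 arrays) and 50 days (2 arrays). The sources used here give no strain, sex, age, spinal level of the ganglia or pooling of animals. Whether the arrays of a group stand for different rats is not stated either, so each p-value rests on a spread between samples that may be technical.

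Peptidergic nociceptors carry these precursors in granules to both ends of their axons, where substance P and CGRP released in the skin act on blood vessels and those released in the spinal cord act on second-order neurons. Somatostatin is made by a separate, smaller set of nociceptors and mostly inhibits the cells it acts on. Transcription of several peptide genes, Sst the best known among them, responds to cyclic AMP through a site called the cyclic AMP response element, whose full palindrome is TGACGTCA and whose core is TGACG. In ganglia, as in any bulk sample, fewer cells of a type and less RNA per cell cannot be told apart.

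The stretch of the promoter that holds this site is shown for the 4 members in RefSeq's promoter table, because it is the best-known regulatory sequence of the Sst gene and the same letters, whole or in part, can be looked for in the others. The table gives 300 bases per gene on the GRCr8 assembly, from 250 before to 50 after a transcript's start. The palindrome or core is in capitals, and each stretch is printed 5′ to 3′ on the gene's own strand.
Sst: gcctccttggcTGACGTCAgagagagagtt
Scg2: ggctgagccggTGACGTCAgcgaggaatgc
Calca: gaagcaccgaggTGACGcaatctgtctggg
Tac1: tccctaaaattgCGTCAtttcgaacccaat
The Sst stretch is chr11:90461537-90461566 on the plus strand, the Scg2 stretch chr9:88256971-88257000 on the minus strand, the Calca stretch chr1:178317624-178317653 on the minus strand and the Tac1 stretch chr4:36645365-36645394 on the plus strand. The Calca stretch lies before the annotated gene, the Sst stretch crosses its first base, and the Scg2 and Tac1 stretches lie within the annotated gene ahead of the transcript start that the table uses; exon and intron limits were not used here. Sst and Scg2 held the full palindrome, whereas Calca held the core and Tac1 held the core on the opposite strand, where it reads CGTCA. The palindrome, which contains the core, was present in 1.83% of 33469 promoter windows, and the core on either strand in 21.2% of them. A match in these letters is a description and not evidence of binding.

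The deposited intensities are linear and fall below 0 for 23.5% to 36.8% of probe sets on an array. The 95th percentile of the size of these negative values was taken as an array's background level. It was 169 to 325 on 17 arrays and higher on 3, namely 499 on CCI 21-day replicate 1 and 765 and 597 on Seltzer 50-day replicates 1 and 2. The share of probe sets above it was 16.3% to 25.9% on the 17 arrays. Ratios between control probe sets along a transcript, a measure of RNA quality, stood apart on the Seltzer 50-day arrays, but not all in 1 direction. In replicate order, GAPDH 3′ over middle was 8.89 and 5.10 there, against at most 2.85 on the other 18 arrays, and beta-actin 3′ over 5′ was 9.88 and 3.94, against at most 2.40. GAPDH 3′ over 5′ was 1.16 and 1.29 there, below the 1.68 to 3.52 of the other arrays. The Seltzer 50-day group consists of 2 of the 3 arrays of high background, so its results cannot be given without them. For Sst, Calcb, Scg2 and the brighter Tac1 and Calca probe sets, CCI changes against sham at 21 days are given with and without replicate 1. Results for other genes at CCI 21 days include that array. Log2 changes are of the intensity, with negative values set to 0 and 16 added, and the test was limma's moderated test over all groups, with Benjamini-Hochberg adjustment across all 8740 of them.

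Members differed widely in how often they were measured. The brighter Tac1 probe set (M15191_s_at) and the brighter Calca probe set (M11597_at) exceeded the background level on 20 of 20 arrays. For Sst, M25890_at did so on 15 arrays and K02248cds_s_at on 5. Scg2 (M93669_at) was above background on 10 arrays and Calcb (M11596_at) on 6. The second Tac1 probe set (X56306_s_at) and the second Calca probe set (L00111unknown_S536_at) were above background on none.

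Somatostatin had the largest log2 difference from sham of the 8 members when averaged over both CCI days. Its main probe set, M25890_at, read 236, 280.0 and 328 in the CCI 14-day ganglia, against 930.0 and 792 in sham at that day. At 21 days it read 74.5, 209 and 189 in CCI ganglia, against 522, 599.8 and 638 in sham. All 6 CCI arrays lay below every sham array of the same day, and the groups did not overlap at either day. At 14 days the level was 3.08-fold lower in CCI (log2 change -1.57 ± 0.73 SE, adjusted p = 0.478). At 21 days no CCI array was above background, so the level was at least 1.91-fold lower (log2 change -1.90 ± 0.65 SE, adjusted p = 0.288). Over both days the change was -1.73 ± 0.49 (SE), with an adjusted p of 0.112, so it did not pass the threshold of 0.05.

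**Figure D1:**
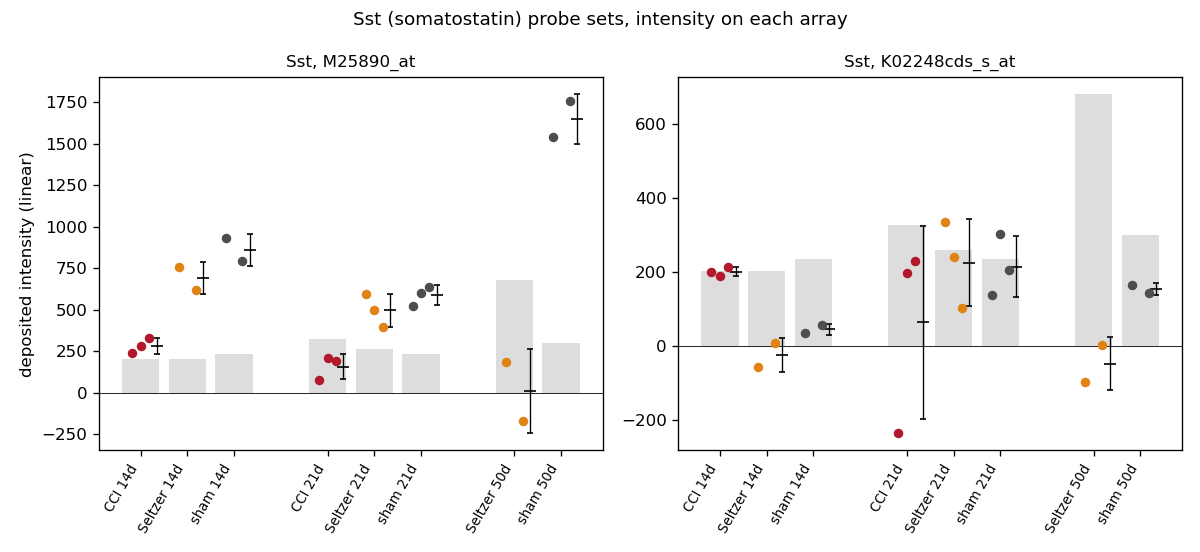
Deposited intensity (linear) of the 2 Sst probe sets on each array, by group and day, with CCI in red, Seltzer in orange and sham in grey; black bars are mean ± SD and grey columns the mean background level of the group. For M25890_at the CCI points lie below the sham points at 14 and 21 days, and the sham 50-day arrays reach 1543 and 1755.

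The size of the Sst difference after CCI moved little between processing settings, while its adjusted p did. Over 22 alternatives the change stayed between -1.85 and -1.52, and it passed the threshold in 5 of them. These were 64 added in place of 16 (adjusted p = 0.0118), a fit of only the groups compared (adjusted p = 0.0156), array weights (adjusted p = 0.0101), a floor of 200 (adjusted p = 4.2e-06), and the 3 arrays of highest background left out (-1.53 ± 0.13 SE, adjusted p = 7.12e-05). Without those 3 arrays the change also passed at each day, at -1.57 (adjusted p = 0.000396) at 14 days and -1.48 (adjusted p = 0.00183) at 21 days. With only CCI 21-day replicate 1 left out, neither the 21-day change (-1.48, adjusted p = 0.637) nor the mean (-1.53, adjusted p = 0.177) passed. Leaving out the 3 arrays was chosen after the data were seen. The spread in the all-group fit is shared with the Seltzer 50-day arrays, where M25890_at read -171 and 186. The floor of 200 lifts both of these values to the same level and takes their spread out of the fit. With that floor the SE of the mean change was 0.11, in place of 0.49.

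**Figure D2:**
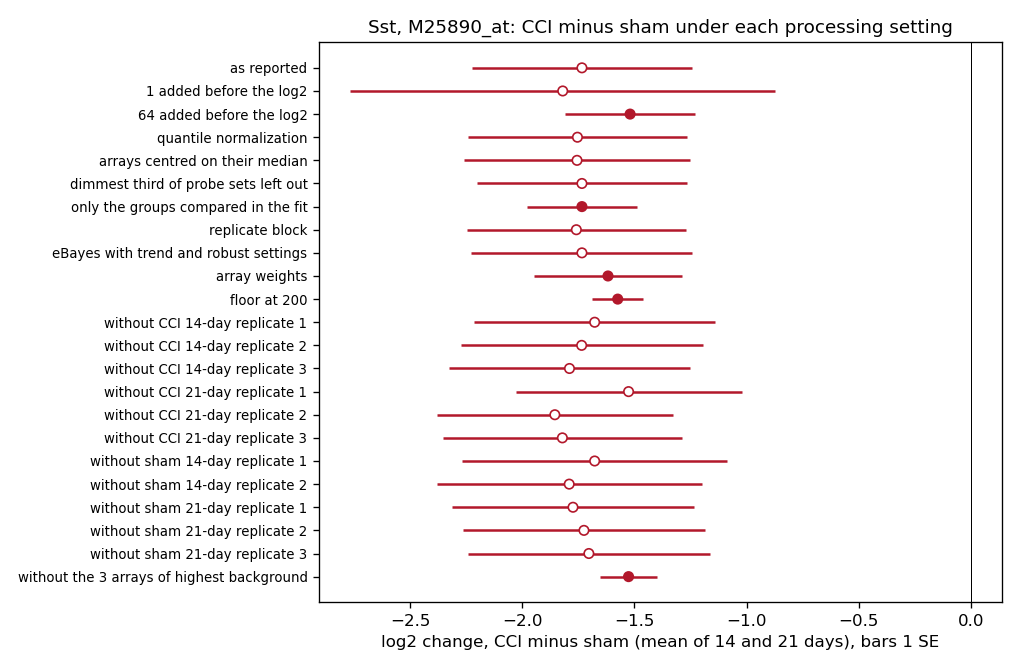
Log2 change of Sst M25890_at, CCI minus sham as the mean of 14 and 21 days, as reported and under 22 alternative settings; bars are 1 SE and filled points have an adjusted p under 0.05. Every estimate lies between -1.85 and -1.52, and 5 points are filled.

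In the Seltzer model Sst stayed near sham at the early days. At 14 days M25890_at read 759 and 621 in Seltzer ganglia, against 930.0 and 792 in sham. At 21 days the Seltzer arrays read 592, 500.0 and 396, against 522, 599.8 and 638 in sham. The Seltzer arrays lay just below sham at 14 days and overlapped it at 21 days. The level was 1.25-fold lower at 14 days (log2 change -0.32, adjusted p = 1) and 1.19-fold lower at 21 days (log2 change -0.25, adjusted p = 1).

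At 50 days Sst was lower in the Seltzer arrays than in sham. M25890_at read -171 and 186 in Seltzer in replicate order, neither above background, against 1543 and 1755 in sham, the highest values of the series for this probe set. The background levels of these Seltzer arrays, 765 and 597, lie above or within the 396 to 759 read in Seltzer ganglia at 14 and 21 days. A fall over time within the Seltzer model therefore cannot be read from them. The level was at least 2.44-fold lower, with a log2 change of -4.87 (adjusted p = 0.00145). K02248cds_s_at also passed the test at 50 days, at -3.33 (adjusted p = 0.0354), but it read 1.58 and -98.5 in Seltzer and 165 and 142 in sham, below background on all 4 arrays, so no fold is given. These 2 were the only members of 8 past the threshold, against 15.9% of all 8740 probe sets in either direction. The background and control ratios of the Seltzer 50-day arrays given above moved with this result, and their part in it was not tested. Within a fit of the 50-day groups alone the M25890_at change did not pass (adjusted p = 0.235), and the K02248cds_s_at call was lost when any 1 of the 4 arrays at 50 days was left out (adjusted p of 0.117 to 0.135).

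The Seltzer effect on Sst M25890_at differed between days. It was lower at 50 than at 21 days by a log2 difference of -4.62 (adjusted p = 0.0167), where 7.41% of probe sets passed, and lower at 50 than at 14 days by -4.55 (adjusted p = 0.0344). Without sham 50-day replicate 2 the first of these was -4.53 and no longer passed (adjusted p = 0.0611), nor did it in a fit of only the groups compared (-4.62, adjusted p = 0.11). Averaged over the 3 days, Sst M25890_at was lower in Seltzer ganglia by -1.81 (adjusted p = 0.0352), the only member of 8 to pass, with 4.38% of all probe sets doing so. Without the 50-day arrays that mean was -0.28 (adjusted p = 1), and the call was lost in 13 of 25 alternatives.

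Set directly against each other, the CCI arrays lay below the Seltzer arrays at both shared days for Sst M25890_at, with no overlap. The level in CCI was 2.46-fold lower at 14 days (log2 change -1.25, adjusted p = 0.74) and at least 1.60-fold lower at 21 days (log2 change -1.65, adjusted p = 0.46). Neither passed over all arrays. Without the 3 arrays of highest background both did, at -1.25 (adjusted p = 0.00267) and -1.24 (adjusted p = 0.0206). With only CCI 21-day replicate 1 left out, the 21-day change was -1.24 and did not pass (adjusted p = 0.805). The other Sst probe set, K02248cds_s_at, was higher in CCI than in Seltzer at 14 days, by 3.47 (adjusted p = 0.0805). It passed in that direction without the 3 arrays (3.47, adjusted p = 0.00074), with array weights (3.45, adjusted p = 3.99e-05) and with only the groups compared (3.47, adjusted p = 0.0142). However, K02248cds_s_at read -58.7 and 7.74 in Seltzer ganglia at that day, both below background. In CCI ganglia it read 198, 189 and 214, with 1 array above background. The level was thus at least 1.00-fold higher, and the change ran from 0.0321 to 6.09 over 16 alternatives. No member passed in these contrasts as first fitted, in which 1.75% of probe sets passed at 14 days and 0.114% at 21 days. At an unadjusted p under 0.05 there were 1 member and 2 members, with no share of all probe sets given beside them.

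Sst also differed among the sham groups. M25890_at was 2.82-fold higher in sham at 50 days than at 21 days, with no overlap (log2 change 1.47, adjusted p = 0.30). Without the 3 arrays of highest background, none of them sham, the same change had an adjusted p of 0.000344. By mean level the groups ran from Seltzer 50 days at 7.72 through CCI 21 days (157), CCI 14 days (281), Seltzer 21 days (496), sham 21 days (587), Seltzer 14 days (690.1) and sham 14 days (861) to sham 50 days (1649). Neighbours in this order overlapped for Seltzer 50 and CCI 21 days, for Seltzer 21 and sham 21 days, and for sham 21 and Seltzer 14 days. The other neighbouring groups did not overlap.

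The 2 Sst probe sets did not give the same picture. At 14 days K02248cds_s_at read 198, 189 and 214 in CCI ganglia, 1 of them above background, against 33.9 and 55.1 in sham, both below it. All 3 CCI arrays were higher than sham here, opposite to M25890_at (log2 change 1.86, adjusted p = 0.502). The higher value passed in 3 of 16 alternatives, with only the groups compared (adjusted p = 0.0306), with array weights (adjusted p = 0.00901) and without the 3 arrays of highest background (adjusted p = 0.0307). At 21 days it read -237, 198 and 230.1 in CCI ganglia, none above background, against 137, 301 and 204 in sham, a log2 change of -1.22 that was 0.06 without replicate 1. Over both days the CCI change of K02248cds_s_at exceeded that of M25890_at by 2.05 ± 0.61 (SE), with an adjusted p of 0.176 over 2270 such pairs, of which 1.06% passed. Across the 20 arrays the 2 probe sets had a Pearson correlation of 0.45 and a Spearman correlation of 0.13.

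Tac1, the substance P precursor, was bright in every group. M15191_s_at read 1307, 1615 and 1687 in CCI ganglia at 14 days, against 2438 and 2110 in sham, with no overlap. At 21 days it read 1969, 1249 and 1447 in CCI ganglia, against 1108, 2312 and 2093 in sham. The CCI and sham ranges overlapped at this day, where sham replicate 1 was the lowest array of all 20. The CCI level was 1.48-fold lower at 14 days (log2 change -0.57) and 1.15-fold lower at 21 days (log2 change -0.20). Over both days the change was -0.38 (adjusted p = 0.545), and it passed in 1 of 22 alternatives, the array weights (-0.62, adjusted p = 0.0129). Without CCI 21-day replicate 1 the changes were -0.38 (adjusted p = 0.819) at 21 days and -0.47 (adjusted p = 0.359) over both days.

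In Seltzer ganglia Tac1 did not keep 1 direction against sham. It read 2151 and 1621 at 14 days, against 2438 and 2110 in sham. It read 1698, 2375 and 2819 at 21 days, against 1108, 2312 and 2093 in sham. The 21-day change was 0.36, and over 17 alternatives it ran from 0.03 to 0.56 and passed in none. At 50 days Tac1 read 1529 and 1528, against 2215 and 2083 in sham. The groups overlapped at 14 and 21 days and not at 50, where the level was 1.41-fold lower in Seltzer (log2 change -0.49). The mean over the 3 days was -0.14 (adjusted p = 0.794). The dim probe set X56306_s_at ranged from -210.2 to 154 over all arrays and gives no fold.

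Calca, the alpha CGRP precursor, overlapped sham in range after CCI. M11597_at read 1402, 1063 and 1292 in CCI ganglia at 14 days, against 1399 and 1382 in sham. At 21 days it read 2109.6, 1115 and 1255 in CCI ganglia, against 734, 1946 and 1893 in sham, where replicate 1 was the lowest array of all 20. The ranges overlapped at both days, with folds of 1.12 lower and 1.03 higher, and the change over both days was -0.06 (adjusted p = 1). Without CCI 21-day replicate 1 it was -0.20 (adjusted p = 0.911), and the 21-day change was -0.23. Over 17 alternatives the 21-day change ran from -0.58 to 0.28 and passed in none. In Seltzer ganglia it read 1213 and 1133 at 14 days, 1006, 1836 and 1525 at 21 days, and 1857 and 1283 at 50 days, the last against 3026 and 3007 in sham. At 50 days the Seltzer arrays lay below sham, at a level 1.95-fold lower (log2 change -0.96), and the mean over the 3 days was -0.39 (adjusted p = 0.448). The sham level itself was 2.17-fold higher at 50 than at 21 days, without overlap (log2 change 1.10, adjusted p = 0.123).

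The second Calca probe set, L00111unknown_S536_at, was never above background. Its highest values were 569 and 477 on the Seltzer 50-day arrays and 481 on CCI 21-day replicate 1, the 3 arrays with the highest background, while the other 17 arrays read 2.47 to 195. In the Seltzer mean it exceeded M11597_at's change by 1.06 (adjusted p = 0.0842), where 1.5% of pairs passed. For Tac1 the dimmer probe set's change differed from the brighter one's by -0.72 in CCI (adjusted p = 0.702) and -0.39 in Seltzer (adjusted p = 0.716). None of the 3 pairs passed in either model by limma. At an unadjusted p under 0.05 the Sst and Calca pairs did so in CCI, and the Calca pair in Seltzer, with no share of all pairs given beside them.

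Calcb, the beta CGRP precursor, was measured mainly at 21 days. M11596_at read -136, 229 and 191 in CCI ganglia at that day, and 322, 328 and 203 in Seltzer ganglia, against 539, 579 and 546 in sham. All 6 injured arrays lay below all 3 sham arrays. The level was at least 1.81-fold lower in CCI (log2 change -2.61, adjusted p = 0.233) and 1.99-fold lower in Seltzer (log2 change -0.95, adjusted p = 0.882). The CCI change rested in large part on replicate 1, which was below 0, and without it was -1.34 (adjusted p = 0.359). With a floor of 200 the 21-day changes passed in CCI (-1.41, adjusted p = 0.000527) and in Seltzer (-0.996, adjusted p = 0.0185). That floor lifts every Calcb value under 200 to the same level and takes the spread among them out of the fit. The SE of both changes was 0.15 with it, in place of 0.81. At 14 days Calcb read 142, 98.3 and 103 in CCI ganglia and 115 and 99.1 in Seltzer ganglia, against 93.9 and 269.7 in sham, of which only the last was above background.

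At 50 days Calcb read -1178 and -888 in Seltzer ganglia, against 25.9 and 119 in sham, none above background. The Seltzer values are below 0 by more than those arrays' own background levels. In sham all 3 arrays at 21 days lay above both arrays at 14 days, of which only 1 was above background. The 50-day sham level was at least 1.85-fold lower than the 21-day one (log2 change -2.92, adjusted p = 0.0747). Without the 3 arrays of highest background, the last of these changes passed with an adjusted p of 0.00208.

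Scg2, the granule protein, lay below sham at CCI 14 days and overlapped it at 21 days. M93669_at read 241, 216 and 248 in CCI ganglia at 14 days, against 335 and 424 in sham, and the groups did not overlap. At 21 days it read 486, 167 and 155 in CCI ganglia, none above background, against 209.9, 354 and 367 in sham. CCI 21-day replicate 1, the array with the raised background, was the highest of all 20 for this probe set. The level was 1.61-fold lower in CCI at 14 days (log2 change -0.65), and over both days the change was -0.50 (adjusted p = 0.551). Without CCI 21-day replicate 1, that change was -0.75 and passed (adjusted p = 0.0336), while the 21-day change went from -0.34 to -0.84 (adjusted p = 0.207). In Seltzer ganglia Scg2 read 308 and 277 at 14 days, 275, 386 and 275 at 21 days, and 225 and 151 at 50 days, with a mean change of -0.24 over the 3 days (adjusted p = 0.707).

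**Figure D3:**
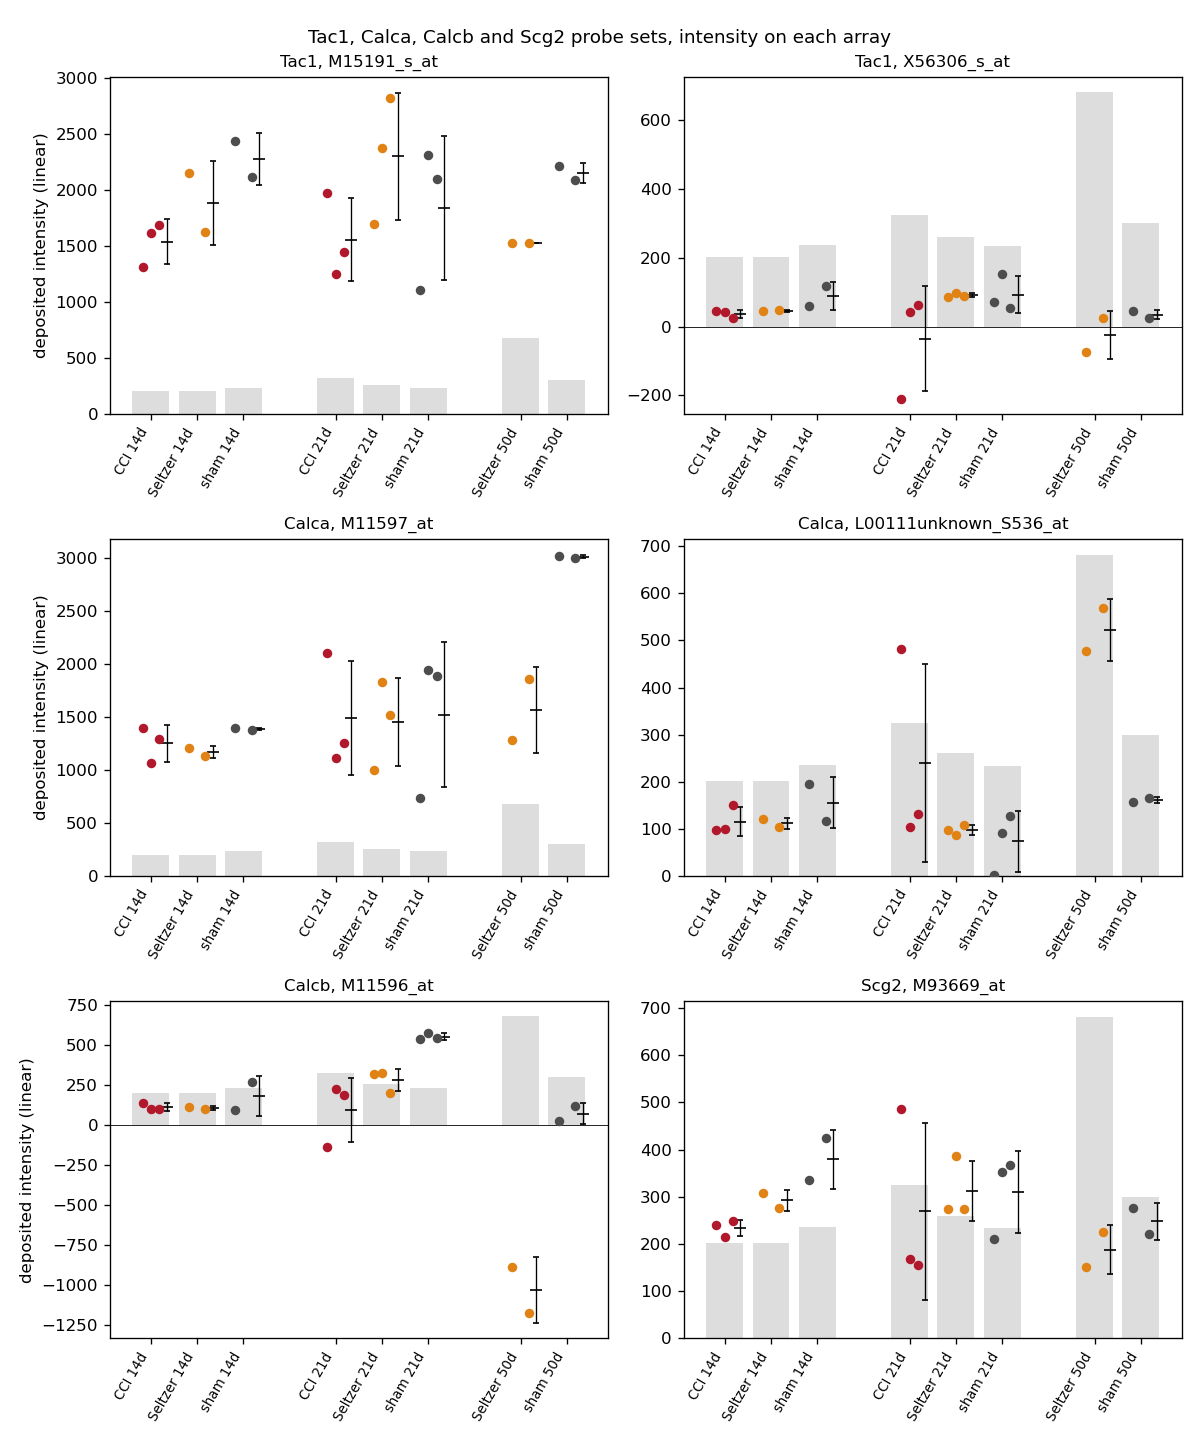
Deposited intensity (linear) of the 6 Tac1, Calca, Calcb and Scg2 probe sets on each array, by group and day, with CCI in red, Seltzer in orange and sham in grey; black bars are mean ± SD and grey columns the mean background level of the group. Tac1 M15191_s_at and Calca M11597_at lie above the grey columns in every group, and Calcb reaches 539 to 579 in sham at 21 days.

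Counted over members, no probe set passed the threshold after CCI at 14 days, where 2.78% of all probe sets passed, at 21 days (0.927%), or as the mean (2.29%). At an unadjusted p under 0.05 there were 0, 4 and 3 members. No share of all probe sets at that limit is given for such counts, so they stand without a comparison. The 4 at 21 days ranked 260, 381, 629 and 814 by p among the 8740 probe sets. Of these, L00111unknown_S536_at (1.66) and X56306_s_at (-1.27) were above background on no array. Without CCI 21-day replicate 1 their changes were 1.02 and -0.58. After Seltzer surgery no member passed at 14 days (0.206% of all probe sets) or at 21 days (0.378%), with 0 members at an unadjusted p under 0.05 at both days. Groups that did not overlap were read in the same way. At CCI 14 days 4 members were lower and 1 higher than every sham array, against 23.3% and 18.1% of all probe sets. At CCI 21 days 2 members were lower and none higher, against 7.68% and 6.57%. At Seltzer 14 days 5 were lower and none higher, against 17.7% and 17.9%, and at Seltzer 21 days 1 was lower and none higher, against 5.46% and 4.97%. At Seltzer 50 days 6 were lower and 1 higher, against 37.2% and 33.4%. Between the injuries, 2 members were lower and 1 higher in CCI than in Seltzer at 14 days, against 22.8% and 16.7%, and 2 were lower and none higher at 21 days, against 5.53% and 5.02%. In sham 1 member was lower and 2 higher at 21 than at 14 days, against 18.6% and 15.1%, and 2 were lower and 3 higher at 50 than at 21 days, against 22.3% and 19.9%. Several of these were above background in neither group compared. They were X56306_s_at, lower at CCI 14 days and Seltzer 14 and 50 days, and K02248cds_s_at, lower at Seltzer 14 and 50 days. Calcb, lower, and L00111unknown_S536_at, higher, joined them at Seltzer 50 days. The same held for X56306_s_at, lower in CCI than Seltzer at 21 days, and for X56306_s_at and L00111unknown_S536_at in sham at 50 against 21 days. By limma no member passed for the CCI effect at 21 minus 14 days (1.8% of all probe sets), for sham at 21 against 14 days (2.57%) or for sham at 50 against 21 days (7.46%), with 1, 0 and 2 members at an unadjusted p under 0.05. CCI and Seltzer shared the sham arrays at 14 and 21 days, so their changes are not independent.

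**Figure D4:**
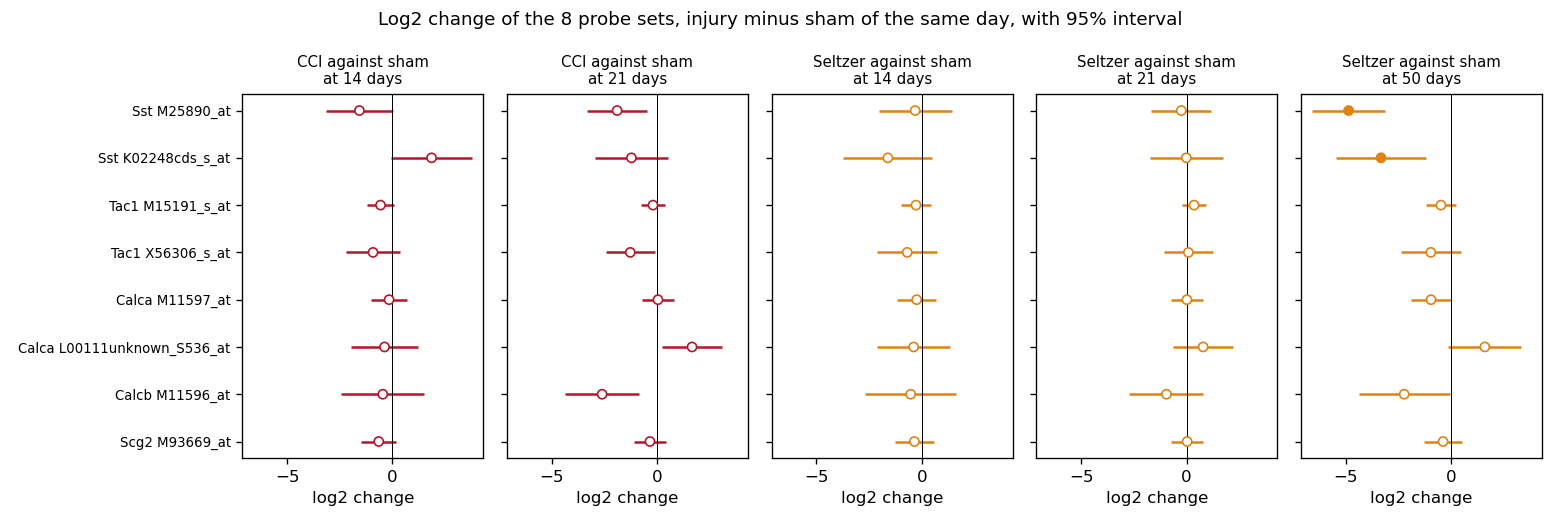
Log2 change of the 8 probe sets, injury minus sham of the same day, for CCI at 14 and 21 days and Seltzer at 14, 21 and 50 days; bars are 95% intervals and filled points have an adjusted p under 0.05. The 2 filled points are the Sst probe sets at Seltzer 50 days, at -4.87 and -3.33.

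Receptors for these peptides were hardly detected in the ganglia. Of 11 measured receptor genes, each read by its brightest probe set, 9 were above background on no array. None passed against sham after CCI at 14 or 21 days or after Seltzer surgery at 14 or 21 days, and their median change over both CCI days was -0.14, against 0.00 over all genes. At Seltzer 50 days 5 of them passed, all higher, against 9.65% of all genes measured. They were Tacr3, a tachykinin receptor, at 2.13 (adjusted p = 0.0312), Calcr, the calcitonin receptor, at 2.05 (adjusted p = 0.00437), Crcp, a CGRP receptor component, at 1.05 (adjusted p = 0.00917), and the somatostatin receptors Sstr3 at 3.90 (adjusted p = 0.0255) and Sstr4 at 2.29 (adjusted p = 0.00276). Only 1 of the 11 genes was above background on a Seltzer 50-day array.

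Genes that process or store peptides moved in both directions. Among 14 measured, Vgf, which encodes another granule precursor, rose in CCI ganglia by 1.54 at 14 days (adjusted p = 0.00969) and 1.49 at 21 days (adjusted p = 0.0155), with mean intensities of 870.1 and 1050.0 in CCI, against 288 and 368 in sham. Chgb, the granule protein chromogranin B, fell at CCI 14 days by 1.14 (adjusted p = 0.0404), to a mean of 381 in CCI against 857 in sham. These were the only members of that list to pass after CCI, where 1.37% of genes were called higher and 1.12% lower at 14 days and 0.612% higher at 21 days. At Seltzer 21 days 1 gene fell, against 0.148% of genes, Scg5, the chaperone of a precursor-cleaving enzyme (-0.86, adjusted p = 0.0367). At Seltzer 50 days 6 fell, against 8.45% of genes, among them Cpe, which trims peptide precursors (-0.94, adjusted p = 0.00172), and Pam, which amidates peptides such as substance P and CGRP (-1.03, adjusted p = 0.0362). At that day 1 gene of the list rose, Mme, which encodes the peptide-degrading enzyme neprilysin (1.61, adjusted p = 0.0325). Mme was above background on 0 of 20 arrays, with means of 238 in Seltzer and 68.9 in sham at 50 days. Only 2 of the 14 genes were above background on a Seltzer 50-day array. The raised background and unusual control ratios of those arrays stand beside these counts, and their part was not tested.

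Other nociceptor and cell type markers gave the surroundings of the Sst difference. Gal, encoding galanin, a peptide that sensory neurons make after axon injury, rose by 4.20 (adjusted p = 0.00163) and 4.76 (adjusted p = 0.000479) at CCI 14 and 21 days. Its mean intensity at these days was 1418 and 1307 in CCI and 719 and 497 in Seltzer, against 68.9 and 42.9 in sham. Of 11 sensory neuron genes, which mark the labelled tissue, 9 were above background on 10 or more arrays. None of the 11 passed at CCI 14 days, and their summed intensity was 29740 to 37166 in CCI ganglia and 19987 to 32112 in sham. At CCI 21 days 1 rose and 1 fell, with sums of 45481 to 49840 in CCI and 31847 to 81063 in sham. Of 5 non-peptidergic nociceptor genes, 2 fell at CCI 14 days, namely the sodium channel gene Scn11a (-1.44, adjusted p = 0.00231) and Cd55 (-1.82, adjusted p = 0.0315), and none passed at 21 days. Of the peptidergic list of 7, the sodium channel gene Scn10a fell at CCI 14 days (-1.47, adjusted p = 0.00671). Over all genes 1.37% were called higher and 1.12% lower at CCI 14 days, and 0.612% and 0.443% at 21 days.

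At Seltzer 50 days, where the Sst calls were made, other neuron genes moved as well. Of the 5 non-peptidergic nociceptor genes 4 fell, namely P2rx3, an ATP-gated channel gene (-1.79, adjusted p = 0.00136), Scn11a (-1.64, adjusted p = 0.000611), Ret, a receptor of glial-derived growth factors (-1.09, adjusted p = 8.12e-05), and Cd55 (-1.77, adjusted p = 0.0183). Their summed intensity was 1568 to 1813 in Seltzer and 4251 to 4463 in sham. None of the 5 was above background on a Seltzer 50-day array, and Cd55 averaged -223 there and 39.5 in sham. Of all genes measured, 8.45% were called lower and 9.65% higher at that day. Of the 11 sensory neuron genes 3 fell, Uchl1 (-1.17), Prph (-0.97) and Ina (-1.86), and Snap25 rose (0.76), with sums of 31982 to 33531 in Seltzer and 39659 to 43627 in sham. In the peptidergic list Prph fell and Adcyap1, which encodes the peptide PACAP, rose (1.05, adjusted p = 0.0223). Adcyap1 averaged 429 in Seltzer and 202 in sham, each mean under the background levels of its arrays. Only 1 of the 7 genes of that list was above background on a Seltzer 50-day array. The part of these shifts in the Sst values was not tested.

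Skeletal muscle and macrophage genes also moved with the groups. Of 15 muscle genes, 1 rose at CCI 14 days and 3 fell at CCI 21 days. Over all genes 1.37% were called higher at 14 days and 0.443% lower at 21 days. The summed intensity of the muscle genes was 12518 to 14152 in CCI and 6242 to 7392 in sham at 14 days. At 21 days it was 2401 to 4093 in CCI and 6339 to 6859 in sham. At 50 days 6 muscle genes rose in Seltzer, against 9.65% of genes, and the sums were 5743 to 7802 in Seltzer and 2685 to 2875 in sham. Only 2 of the 15 muscle genes were above background on a Seltzer 50-day array. Of 8 macrophage genes, 2 rose at CCI 14 days and 3 at 21 days, against 1.37% and 0.612% of genes. Their sums were 4470 to 5475 and 3762 to 4744 in CCI, against 2019 to 2448 and 1343 to 1854 in sham. In Seltzer ganglia none passed at 14 days and 2 rose at 21 days, against 0.274% of genes. The Seltzer sums were 3532 to 4569 and 2876 to 3332 at these days. At Seltzer 50 days 2 macrophage genes rose, against 9.65% of genes. None of the 12 satellite glia and Schwann cell genes passed against sham in any group by limma. The part of these cell types in the peptide values was not tested.

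By Pearson correlation over the 20 arrays, the genes most like Sst M25890_at were Ckmt1 (0.91), Tnk2 (0.90) and Got1 (0.89), and over the 18 arrays without Seltzer 50 days these were 0.85, 0.91 and 0.83. Most like Tac1 were Thra (0.77), Fbln5 (0.76) and Ndrg4 (0.74), and most like Calca were Prkaca (0.82), Fbln5 (0.81) and Dad1 (0.80). Most like Calcb were Anxa5 (0.93), Trap1 (0.92) and Aldoc (0.92). For Scg2 they were the sodium channel gene Scn9a (0.74), Tac1 (0.69) and Cadps (0.68), a protein of granule release. Without the Seltzer 50-day arrays the Scg2 values were 0.57, 0.64 and 0.53. The points share arrays, groups and their overall brightness, so these values are descriptions.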

How the data were processed

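Total RNA of rat dorsal root ganglia was read on 20 arrays in 8 groups. The authors deposited linear intensity values, 1 column per sample, and the sources used here do not give the software, background step or scaling between arrays. From 8799 probe sets, 59 array controls were left out. Gene names are those of the platform annotation brought up to date by Entrez ID, and 7006 probe sets had 1 symbol, 308 several and 1426 none. For the tests, log2 was taken of the intensity plus 16, after values under 0 had been raised to 0. One mean per group was fitted with limma 3.58.1 (lmFit, eBayes) in R 4.3.3 with statmod 1.5.0, leaving 12 residual degrees of freedom. Tests were two-sided, adjusted by Benjamini-Hochberg over all 8740 probe sets, with a threshold of 0.05. Probe sets of 1 gene were compared by fitting their log2 difference from the gene's brightest one.

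Folds are ratios of geometric mean intensities. Where no array of the dimmer group exceeded its background level, the brighter group was set against that level and the fold written as at least. No fold is given where neither group was measured. The number of arrays limits the precision.

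Members, lists and contrasts were chosen with earlier results of these data known. All members are named, and the 3 genes most like each, with the called genes of the lists, were named by rule; examples were taken from the called genes. The fit was tested on simulated data. Figures used Python 3.11.15 and matplotlib 3.10.9. Deviations of same-numbered arrays of Seltzer and sham at 21 days had correlations of 0.299, 0.226 and 0.110. In the other contrasts such correlations lay between -0.0353 and 0.153. Whether equal numbers mark a pairing is not known, since the labels state no shared animal or day. The main fit used no pairing. For 3 CCI arrays a lot batch is labelled with that same number, and in CCI and sham at 21 days the correlations were 0.0606, 0.0881 and 0.0931.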

Additional observations from a re-analysis of the deposited data

Results flagged for a closer look

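The Seltzer effect on Sst M25890_at differed between days by a test of the difference itself. It was -4.62 on the log2 scale at 50 minus 21 days (adjusted p = 0.0167, limma) and -4.55 at 50 minus 14 days (adjusted p = 0.0344), and the second was added after the data were seen. At 50 days the probe set read -171 and 186 in Seltzer ganglia and 1543 and 1755 in sham. The sham arrays at that day were the 2 highest of the series and the Seltzer arrays carried the highest background levels, 765 and 597; the part of either in the difference was not tested.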

How the results depend on the processing

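Counts of the 8 members past the threshold depended on how the spread was estimated. The share of all probe sets past the threshold is given only for the fit as first made. The shifts below therefore describe the calls and are not results about the members. For CCI against sham the 14-day count of 0 became 2 with only the groups compared, 3 with array weights, 1 with a floor of 200 and 2 without the 3 arrays of highest background. The 21-day count of 0 became 1, 2 and 1 with array weights, the floor and those 3 arrays left out. The count of 0 for the mean became 1 with 64 added, 1 with only the groups compared, 3 with array weights, 2 with the floor and 2 without the 3 arrays, and ranged from 0 to 1 over single arrays left out, the 1 being Scg2 without CCI 21-day replicate 1. For CCI at 21 minus 14 days it became 1 with array weights and with the floor. For Seltzer against sham the floor gave 1 at 21 days. The 2 at 50 days became 1 with 64 added, 1 with quantile normalization, 5 with array weights and 3 with only the groups compared, where Sst M25890_at was lost and Tac1 M15191_s_at and Calca L00111unknown_S536_at were gained. With the floor it stayed 2, with L00111unknown_S536_at in place of K02248cds_s_at. It was 1 to 1 over each of the 4 arrays at that day left out. The 1 for the Seltzer mean became 0 with 1 added, 3 with array weights, 2 with the floor and 0 without the 50-day arrays, and ranged from 0 to 1 over single arrays left out. It was 0 without either Seltzer or either sham array at 14 days, either sham array at 50 days, or replicate 2 or 3 of Seltzer or sham at 21 days. The 1 for Seltzer at 50 minus 21 days became 0 with 1 added, 2 with array weights and 3 with the floor, and 0 to 1 over single arrays, 0 being without sham 50-day replicate 2. With only the groups compared it stayed 1, with K02248cds_s_at (adjusted p = 0.0452) in place of M25890_at; for the Seltzer mean the same exchange took place (adjusted p = 0.0115 and 0.0798). CCI against Seltzer at 14 days became 1 with only the groups compared, array weights or the floor and 2 without the 3 arrays; at 21 days it became 1 with the floor and without those arrays. Sham at 21 against 14 days became 1 with array weights, the floor or those arrays left out. Sham at 50 against 21 days became 1 with 64 added, the dimmest probe sets left out or only the groups compared, and 2 with array weights, the floor or the 3 arrays left out. Probe sets that differed from the brightest of their gene became 1 in CCI with 64 added, array weights or the floor, and 0 to 1 over single arrays (CCI 21-day replicate 1). In Seltzer they became 1 with 64 added, 1 with array weights and 2 with the floor.

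The Calcb difference of Seltzer effects, 50 minus 21 days, was -1.28 and became 0.996 with the floor of 200. That floor lifts every Calcb value at 50 days to the same level, so only the 21-day difference is left. In a fit with a replicate block, the counts were 0 for CCI at each day and for its mean, 2 for Seltzer at 50 days and 1 for the Seltzer mean, and the block changed no member's call. Among 1733 alternative values of changes that passed in neither setting, 83 turned their sign. The cause of the other shifts was not tested. Precision is limited by 2 or 3 arrays a group and, for 6 of the 8 members, by signal near or below background on part of the arrays.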
